A study of Mus musculus with 36 samples.

Results

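The TRAMP effect on the miRNA pool of the Elac2-deleted prostate at 10 weeks of age was measured by comparing 3 KO-TRAMP libraries (library numbers 7, 8 and 9) with 3 KO libraries (31, 32 and 33), which are 6 of the 36 miRNA libraries of the study. ELAC2 is the nuclease that trims the 3′ ends of precursor transfer RNAs, and the study asked how its loss or mutation acts on the prostate with and without an oncogene. Both groups were homozygous for the Elac2 deletion (ELAC2-/-), made in the prostate by a Pb-Cre recombinase that removes exon 8. The KO-TRAMP mice were in addition TRAMP +/-, heterozygous for a transgene that expresses the SV40 large T and small t antigens from the probasin promoter, so Cre and oncogene are both driven by probasin sequences active in prostate epithelium. All mice were 10-week-old males, and the tissue was the ventral and lateral prostate lobes. The Elac2 lines were on a background given as C56NL/6N, and the strain of the TRAMP mice they were bred with is not stated. The mice are described as matched by age and litter, without saying which groups shared litters. For comparison, the same TRAMP effect was taken in WT (ELAC2+/+) and in A537T mice, which are homozygous for an alanine to threonine change in ELAC2 (ELAC2A537T), at 10 weeks, and in KO at 30 weeks, with 3 libraries in each group. The libraries of a group are described as coming from separate mice, used as biological replicates.

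Mature miRNAs are short RNAs that guide Argonaute proteins to partly matching messenger RNAs, mainly through the seed at their 5′ end, and lower the output of those messengers. SV40 large T antigen binds and inactivates the tumour suppressors p53 and pRB. p53 is a known activator of miR-34a, and the E2F factors that pRB restrains are known activators of Mcm7, the gene that carries the miR-106b~25 cluster. In the prostate, luminal epithelium is rich in the miR-200 family, and the smooth muscle around the glands is rich in miR-143 and miR-145a.

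The sequences of the miRNAs on which the results turn are given as in RefSeq for GRCm38.p6, written 5′ to 3′ with the seed (bases 2 to 8) in capitals. The first set shows miRNAs that were higher in KO-TRAMP, from the cluster in Mcm7 and, of the 6 tested miRNAs with the miR-15/16 seed, the 3 that were called. miR-93-5p and miR-106b-5p share 1 seed, and miR-15b-5p, miR-195a-5p and miR-497a-5p share another.
miR-25-3p: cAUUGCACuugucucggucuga
miR-93-5p: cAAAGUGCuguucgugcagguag
miR-106b-5p: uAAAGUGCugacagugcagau
miR-15b-5p: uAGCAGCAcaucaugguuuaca
miR-195a-5p: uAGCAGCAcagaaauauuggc
miR-497a-5p: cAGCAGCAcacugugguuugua

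The second set shows a seed shared by miRNAs that moved in opposite directions, miR-34a-5p down and miR-449a-5p up, which match over their first 9 bases. It also shows miR-10a-5p and miR-10b-5p, which lie in Hox gene clusters and differ at 1 position, counted from the 5′ end (U12A, miR-10a-5p first).
miR-34a-5p: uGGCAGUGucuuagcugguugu
miR-449a-5p: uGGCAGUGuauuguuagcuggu
miR-10a-5p: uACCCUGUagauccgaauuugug
miR-10b-5p: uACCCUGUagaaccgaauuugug

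The third set shows abundant miRNAs that were higher in KO-TRAMP.
miR-148a-3p: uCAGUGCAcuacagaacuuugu
miR-21a-5p: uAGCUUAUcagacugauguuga
miR-200a-3p: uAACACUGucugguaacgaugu
miR-200b-3p: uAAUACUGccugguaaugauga

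The last set shows other miRNAs with large changes. miR-3473b and miR-3473e share their first 18 bases, so reads may be divided between them and their separate values are uncertain.
miR-128-3p: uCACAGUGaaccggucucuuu
miR-340-5p: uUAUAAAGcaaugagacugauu
miR-3473b: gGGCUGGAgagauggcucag
miR-3473e: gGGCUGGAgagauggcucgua
miR-135a-5p: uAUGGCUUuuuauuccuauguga
miR-708-5p: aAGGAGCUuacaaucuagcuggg
miR-500-3p: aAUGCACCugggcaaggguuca
miR-3102-3p: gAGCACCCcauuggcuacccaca
miR-138-5p: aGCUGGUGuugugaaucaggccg
miR-7b-5p: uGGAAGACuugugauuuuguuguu
miR-129-5p: cUUUUUGCggucugggcuugc

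The KO-TRAMP libraries were shallower, at 6397370 to 10512950 miRNA reads, than the KO libraries, at 12422946 to 18574473. Levels are RPM (reads scaled to a library total of 1000000 miRNA reads), listed in the order 7, 8 and 9 for KO-TRAMP and 31, 32 and 33 for KO. Folds are ratios of group means, and log2 changes are KO-TRAMP minus KO on log2(RPM + 1), which understates the change of low miRNAs, with the SE after the sign ±. Skeletal muscle miRNAs took 0.238%, 0.433% and 3.09% of the KO-TRAMP reads and 0.773%, 6.51% and 0.736% of the KO reads, so libraries 9 and 32 stood apart from their groups. The 2 groups were deposited in separately normalised tables and carry separate stretches of library numbers. The transgene cannot be told apart from any handling difference between those 2 sets of libraries or from depth. Nor can it be told apart from any strain difference brought in by the TRAMP cross. Group membership rests on the names of those tables, and neither Elac2 messenger RNA nor the transgene was measured in these data.

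KO-TRAMP and KO differed across a broad part of the miRNA pool. Of 510 miRNAs with a mean of at least 1 RPM, 224 (43.9%) passed a limma adjusted p of 0.05, of which 86 (16.9%) were higher and 138 (27.1%) lower in KO-TRAMP. Among those called, 54 were more than 2-fold higher and 101 more than 2-fold lower in the means. The groups did not overlap for 310 miRNAs (60.8%), and all 224 called miRNAs were among these. With each library thinned to the depth of the shallowest, 208 miRNAs passed, 81 higher and 127 lower. The median log2 change over all 510 was -0.41, and the changes of single miRNAs stand beside this shift. With median-ratio scaling, as in DESeq2, the median was -0.12 and the calls were 121 higher and 97 lower. No called miRNA changed sign with that scaling, and 82 rises and 74 falls were called under total, median-ratio, TMM and muscle-free scaling and by edgeR and DESeq2. Single libraries moved the counts. Without library 8 the falls rose to 224, and the calls in all were 95 without library 31, 105 without 32 and 94 without 33.

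**Figure D1:**
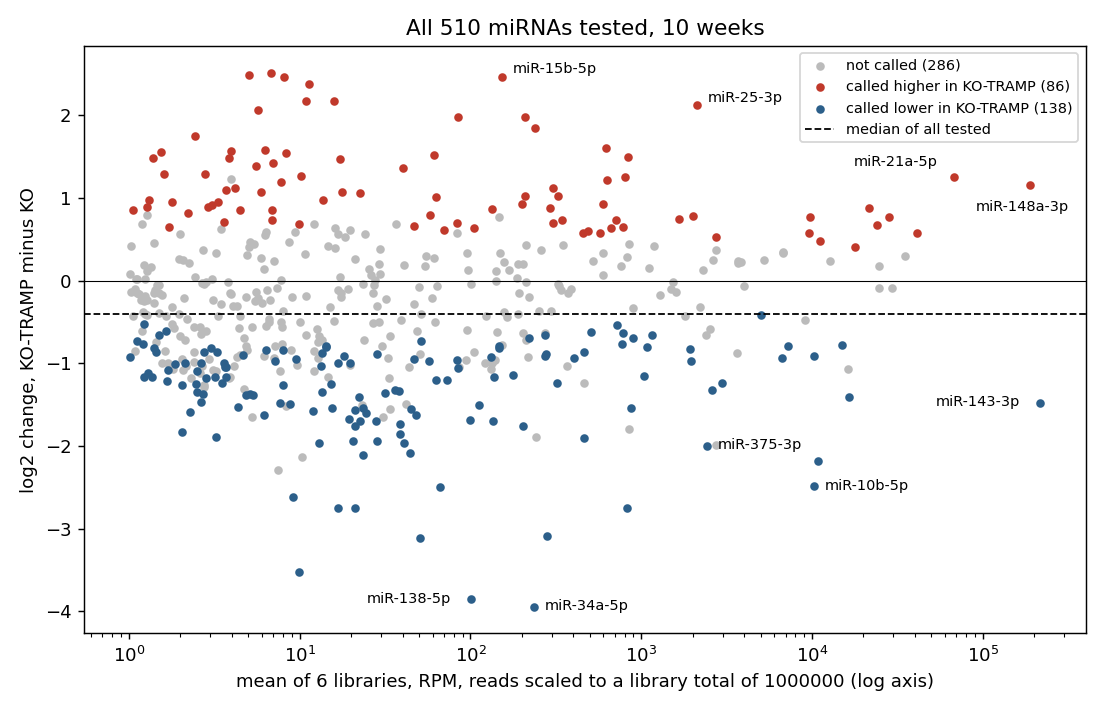
Log2 change (KO-TRAMP minus KO, vertical axis) against the mean level over the 6 libraries (RPM, log axis) for the 510 miRNAs tested. Red points are the 86 miRNAs called higher and blue points the 138 called lower, and the dashed line at -0.41 is the median of all tested.

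The clearest rise was in the miR-106b~25 cluster, a polycistron of the miR-17 group known for promoting cell cycle entry. Its 3 hairpins lie on chromosome 5 (GRCm38, minus strand, 138165321 to 138165818), inside Mcm7 and on its strand. All 6 of its mature arms tested rose. miR-25-3p stood at 3727, 3677 and 2952 RPM in KO-TRAMP and 757, 742 and 869.9 in KO, 4.37-fold higher in the means (log2 change 2.12 ± 0.15, limma adjusted p 0.00105). The lowest KO-TRAMP library was above 3 times the highest KO library. miR-93-5p stood at 1189, 1483 and 1042 against 435, 402 and 467, 2.85-fold higher in the means (log2 change 1.50 ± 0.17, limma adjusted p 0.00211). miR-106b-3p, the other arm of miR-106b-5p, stood at 365, 372 and 270.0 against 78.7, 79.8 and 92.3, 4.01-fold higher in the means (log2 change 1.98 ± 0.19, limma adjusted p 0.00128). The log2 changes of the remaining arms were 2.17 ± 0.25 for miR-25-5p, 0.97 ± 0.28 for miR-93-3p and 0.86 ± 0.18 for miR-106b-5p.

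Over a list that joined this cluster with the related miR-17~92 cluster and the cluster of miR-106a and miR-363, 9 of 19 tested miRNAs rose and 0 fell, and with median-ratio scaling 17 rose. Without library 33 the rises were 5, and without library 32 they were 6. The list summed to 0.594% to 0.753% of the miRNA reads in KO-TRAMP and 0.262% to 0.286% in KO, with no overlap. Its median log2 change was 0.64, against -0.41 for all tested miRNAs. miR-19a-3p, a member of miR-17~92, rose from 12.5, 11.8 and 8.86 to 21.4, 30.4 and 21.3 RPM (log2 change 1.07 ± 0.24, limma adjusted p 0.0147). The main arms miR-17-5p (0.21 ± 0.18), miR-20a-5p (0.38 ± 0.14) and miR-92a-3p (0.28 ± 0.14) were not called, and passed with median-ratio scaling.

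The miR-15/16 family, known as brakes on cyclins and BCL2, had 5 of 10 tested members higher and 0 lower, with 8 higher under median-ratio scaling. miR-15b-5p, from chromosome 3 in an intron of Smc4, had the largest rise of the named miRNAs on the log2(RPM + 1) scale, while in the ratio of means miR-3473e rose more (6.59-fold). It stood at 295, 244 and 232 RPM in KO-TRAMP and 37.3, 33.3 and 75.9 in KO, 5.27-fold higher in the means (log2 change 2.46 ± 0.32, limma adjusted p 0.00312). KO library 33 lay above its group and still far below KO-TRAMP. miR-195a-5p (0.93 ± 0.17) and miR-497a-5p (1.02 ± 0.18), neighbours on chromosome 11 with the same seed, rose as well. The star arm miR-195a-3p stood at 119, 65.2 and 92.2 against 29.0, 30.8 and 31.6 (1.53 ± 0.25). miR-16-5p, the most abundant member, was at 1263, 1583 and 1221 against 972, 967 and 1081, did not overlap, and was not called (limma adjusted p 0.0601; 0.00812 with median-ratio scaling).

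miR-34a-5p, a p53 target that restrains proliferation, had the largest fall of all called miRNAs. Its gene lies on chromosome 4 (150068454 to 150068555, plus strand). It stood at 16.1, 40.3 and 32.7 RPM in KO-TRAMP and 402, 475 and 448 in KO, 14.9-fold lower in the means (log2 change -3.94 ± 0.33, limma adjusted p 0.00105). The highest KO-TRAMP library lay far below the lowest KO library. The call held under all 18 alternatives, over which the log2 change ran from -4.20 to -3.56. miR-34c-5p, from the second p53-linked locus on chromosome 9, was at 22.3, 62.8 and 55.0 against 91.8, 101 and 106 (-1.20 ± 0.38, limma adjusted p 0.0399), and miR-34b-3p fell by 0.84 on the log2 scale. miR-449a-5p, which has the same seed but lies in Cdc20b and is known from ciliated cells, rose by limma from 2.42, 2.50 and 2.97 to 8.80, 9.04 and 11.9 (1.58 ± 0.21, limma adjusted p 0.00336). Of the 11 listed miR-34 and miR-449 miRNAs, 6 could be tested, of which 3 fell and 1 rose. With library 9, 31, 32 or 33 left out only 1 fall passed, and without library 7, as with median-ratio scaling, 2 did. The rest of the list was under the filter, 2 of them without a read in any of the 6 libraries.

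The most abundant miRNAs changed rank. In KO the leading miRNA was miR-143-3p, a marker of smooth muscle, at 333948, 279904 and 327612 RPM, and in KO-TRAMP it stood at 69928, 156997 and 129911, 2.64-fold lower in the means (log2 change -1.47 ± 0.28, limma adjusted p 0.00967). In KO-TRAMP the leader was miR-148a-3p, which is known to be responsive to androgen in prostate cells, at 313900, 225711 and 242912 against 122426, 112420 and 113668, 2.25-fold higher in the means (log2 change 1.15 ± 0.14, limma adjusted p 0.00238). The groups did not overlap for either. miR-21a-5p, an oncogenic miRNA that represses Pdcd4, stood at 108772, 92291 and 88088 against 43381, 42538 and 34896, 2.39-fold higher in the means (log2 change 1.26 ± 0.14, limma adjusted p 0.00176). miR-26a-5p, a regulator of Ezh2, rose from 29975, 32179.6 and 38163 to 49068, 52313 and 47218 (0.57 ± 0.13, limma adjusted p 0.0132). let-7f-5p, at 43082, 31852 and 41127 against 31884, 34841 and 27059, overlapped between the groups and was not called (limma adjusted p 0.147). The call of miR-26a-5p was lost without library 31 or 32 (limma adjusted p 0.0567 at most).

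**Figure D2:**
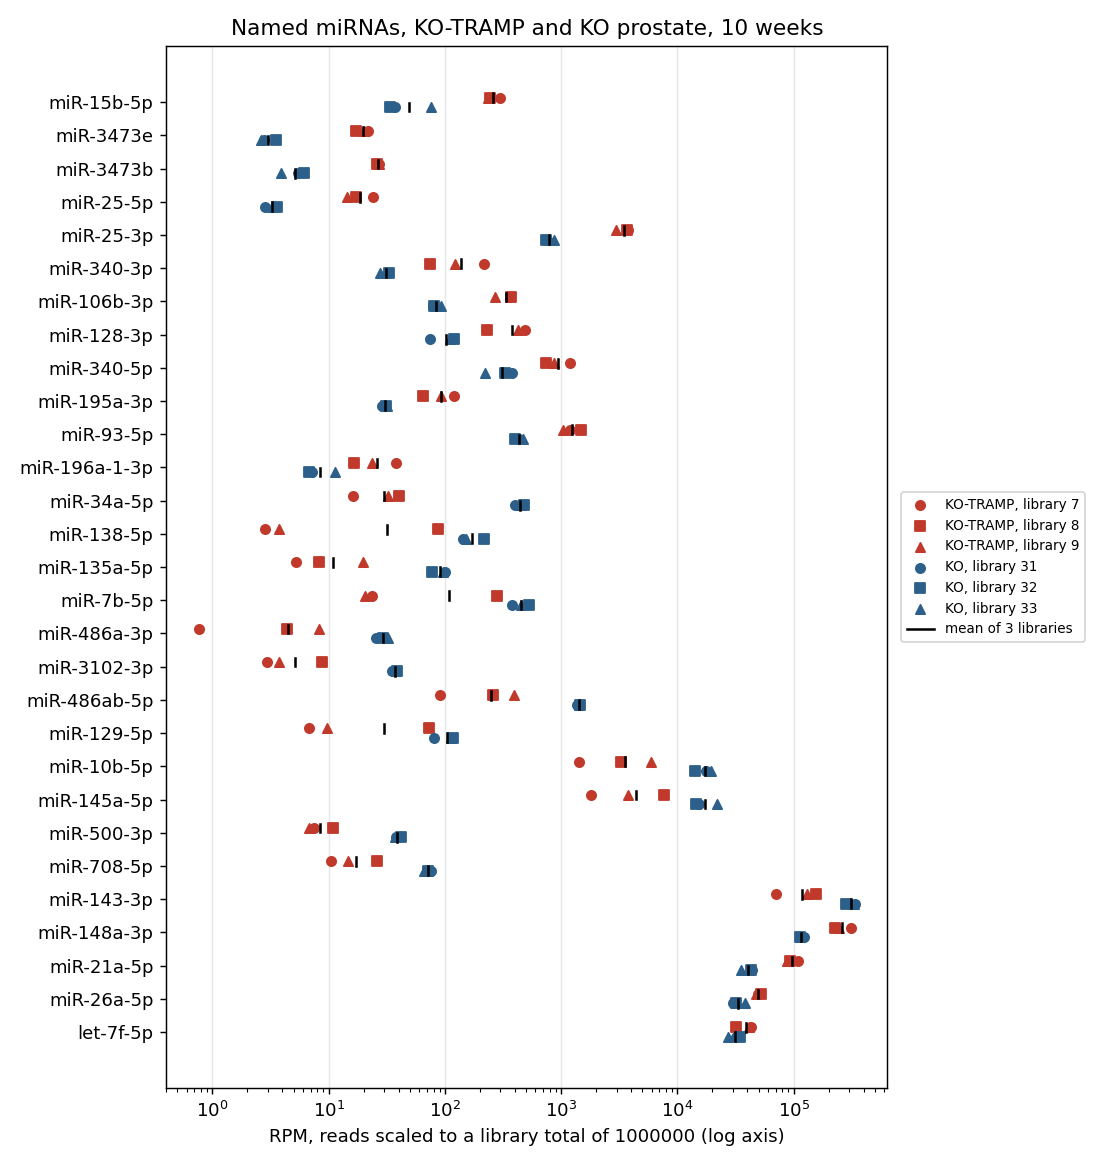
Level of each named miRNA in the 6 libraries (RPM, log axis), KO-TRAMP in red and KO in blue, with marker shapes for single libraries and a black tick at each group mean. The first 12 are rises, the next 12 falls and the last 5 the most abundant miRNAs. Library 8 sits apart from libraries 7 and 9 for miR-138-5p, miR-7b-5p and miR-129-5p.

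The miR-200 family, which keeps cells epithelial by repressing Zeb1 and Zeb2, summed to 6.65% to 8.84% of the miRNA reads in KO-TRAMP and 4.59% to 5.05% in KO. Of its 9 tested members 5 rose and 0 fell, with a median log2 change of 0.53, and without library 32 or 33 the rises were 2. miR-200a-3p stood at 30786, 30164 and 23528 against 16089, 15116 and 14334 (0.88 ± 0.14, limma adjusted p 0.00556), with no overlap. miR-200b-3p rose by 0.68 ± 0.16 and miR-141-3p by 0.73 ± 0.16, while miR-200c-3p, at 15682, 13775 and 11888 against 11184, 11624 and 11919, was not called. In the cluster of miR-183, miR-96 and miR-182, 2 of 5 listed members rose, miR-183-5p (0.79 ± 0.13) and miR-182-3p (1.57 ± 0.19), and 4 did so with median-ratio scaling. The unlisted arm miR-96-3p, a low miRNA at 1.79, 1.52 and 2.50 against 0.861, 0.805 and 0.135, was called higher too (0.90 ± 0.26), which makes 3 of 6 in the cluster. Basal epithelial miRNAs split, and their list took 0.211% to 0.281% of the miRNA reads in KO-TRAMP and 0.382% to 0.628% in KO, lower without overlap. miR-205-5p, the main basal marker, fell from 3312, 3567 and 5638 to 1277, 1993 and 2000.3 (-1.24 ± 0.27, limma adjusted p 0.0128), its other arm fell too, and miR-203-3p, a miRNA of differentiating epithelium, rose from 501, 447 and 630.3 to 831, 812 and 791 (0.64 ± 0.17), a call lost without library 7, 31 or 32. In such whole tissue, fewer cells of a type and less RNA per cell cannot be told apart.

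All 4 smooth muscle miRNAs fell, and together they took 7.29% to 16.7% of the miRNA reads in KO-TRAMP and 29.8% to 35.3% in KO. miR-145a-5p, which works beside miR-143 in contractile smooth muscle, stood at 1800.3, 7651 and 3753 against 15265, 14459 and 21889, 3.91-fold lower in the means (log2 change -2.18 ± 0.49, limma adjusted p 0.0139). The KO-TRAMP libraries differed among themselves by over 4-fold and all lay below the KO libraries. Without library 33 its call was lost (limma adjusted p 0.0599) and 1 smooth muscle fall passed, and without library 31 or 32 there were 2. All 5 fibroblast miRNAs of the miR-199 and miR-214 group fell, miR-199b-5p the most (-1.90 ± 0.43), and the list took 0.434% to 0.788% of the miRNA reads in KO-TRAMP and 1.18% to 1.26% in KO. With median-ratio scaling 3 of these 5 passed, and without library 31, 32 or 33 there were 0. Both arms of the endothelial miR-126a fell, miR-126a-3p from 13803, 13890.1 and 12044 to 4818, 6714 and 10771 (-0.91 ± 0.28, limma adjusted p 0.0344), and 1 of them passed with median-ratio scaling or without library 7 or 8, and 0 by edgeR or without library 31, 32 or 33. Of the 6 red cell miRNAs 5 fell, and without library 32 or 33 there were 3. miR-486ab-5p, a pair of identical miRNAs counted together and found in red cells and muscle, stood at 89.9, 259.8 and 390.5 against 1357, 1448 and 1435, 5.73-fold lower in the means (log2 change -2.75 ± 0.49, limma adjusted p 0.00764). The red cell marker miR-451a was at 65.7, 178 and 57.5 against 223, 328 and 361 (-1.75 ± 0.44), and miR-486a-3p fell by 2.75 on the log2 scale (limma adjusted p 0.0515 without library 33). The part of tissue make-up in these differences was not tested.

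Leukocyte miRNAs gave a mixed picture, with sums of 0.284% to 0.323% of the miRNA reads in KO-TRAMP and 0.283% to 0.288% in KO. Both arms of miR-142a, which is made across the blood cell lineages, rose, miR-142a-5p from 131, 137 and 144 to 285, 222 and 285 (0.93 ± 0.17, limma adjusted p 0.00815). miR-223-3p, a neutrophil and macrophage miRNA, fell from 32.7, 33.6 and 29.2 to 8.16, 14.5 and 8.60 (-1.57 ± 0.26, limma adjusted p 0.00638). The lymphoid miR-150-5p (-0.59 ± 0.22) and miR-155-5p (-0.67 ± 0.27), the inflammation-induced miR-146a-5p (0.12 ± 0.12) and miR-342-3p (-0.92 ± 0.34) were not called. Without library 9, 31, 32 or 33, 1 of the rises passed, and without library 8 or 9 there were 3 falls.

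**Figure D3:**
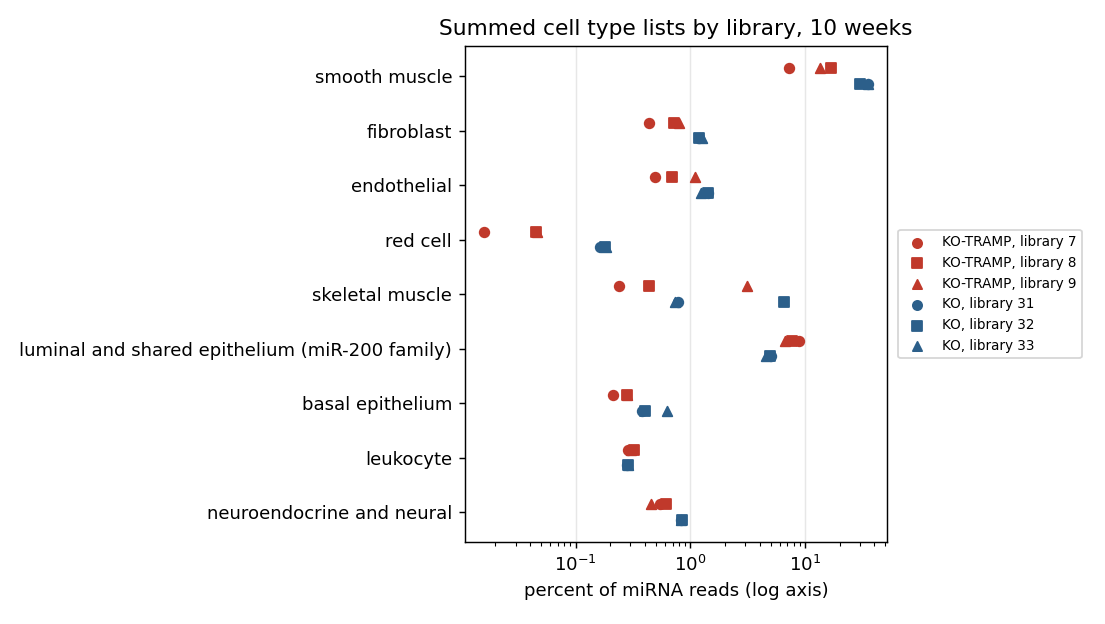
Summed share of the miRNA reads (percent, log axis) of each cell type list in the 6 libraries, KO-TRAMP in red and KO in blue, with marker shapes for single libraries. Smooth muscle, fibroblast, endothelial and red cell sums are lower in all KO-TRAMP libraries, the miR-200 family is higher in all, and the skeletal muscle sums overlap.

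The miRNAs of the Hox clusters, which mark the position of a tissue along the body axis, mostly fell in KO-TRAMP. In the list of miR-10 and miR-196 miRNAs 5 of 6 fell and 1 rose, and the list summed to 1.06% to 1.96% of the miRNA reads in KO-TRAMP and 3.57% to 4.85% in KO. miR-10b-5p, which lies on chromosome 2 in an intron of Hoxd3 and Hoxd4, stood at 1412, 3257 and 5979 against 17663, 14041 and 19561, 4.81-fold lower in the means (log2 change -2.49 ± 0.48, limma adjusted p 0.0096). Its KO-TRAMP values were spread over more than 4-fold, yet the highest was below the lowest KO value. miR-10a-5p, from the Hoxb region of chromosome 11, stood at 7949.9, 7183 and 12208 against 24625, 19659.7 and 27102 (-1.41 ± 0.23, limma adjusted p 0.00587), and its other arm moved with it (-1.17 ± 0.21). Because miR-10a-5p and miR-10b-5p differ by 1 base, reads with an error there can pass from one to the other. miR-196b-5p fell (-0.66 ± 0.19) and miR-196a-5p rose (0.74 ± 0.17). Outside the list, miR-196a-1-3p rose as well, from 7.21, 6.76 and 11.4 to 37.8, 16.6 and 23.4, a call lost without library 31 or 32. The other unlisted arm, miR-196b-3p, was called lower (log2 change -1.18). The falls of the list were 3 without library 33, where miR-196a-5p was not called, nor was it without library 31.

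Of the 6 tested neuroendocrine and neural miRNAs 3 fell, and library 8 stood apart from the rest of its group. The list member miR-7a-5p went the other way and was not called (log2 change 0.22). miR-375-3p, a marker of neuroendocrine cells that luminal prostate cells also make, fell from 4012, 3248 and 4329 to 1069, 737 and 1125, 3.95-fold lower in the means (log2 change -2.0 ± 0.21, limma adjusted p 0.00161). For miR-7b-5p, known from neurons and endocrine cells, KO-TRAMP held 23.5, 278 and 20.5 and KO 375, 531 and 449 (-3.09 ± 0.92, limma adjusted p 0.0322). The neuronal miR-138-5p had the same form, at 2.81, 87.8 and 3.75 against 142, 218 and 153 (-3.85 ± 1.12, limma adjusted p 0.0303). So did miR-129-5p, at 6.76, 72.9 and 9.69 against 80.4, 117 and 112 (-2.49 ± 0.79, limma adjusted p 0.0403). In each of these 3 library 8 held several times the level of libraries 7 and 9 and still lay below the KO libraries. Without library 8 their log2 changes were -4.29 for miR-7b-5p, -5.31 for miR-138-5p and -3.50 for miR-129-5p. None of the 3 passed with edgeR's quasi-likelihood test or by limma without any 1 of libraries 7, 9, 31, 32 and 33, and miR-138-5p and miR-7b-5p did not pass with DESeq2. The defining neuronal miR-124-3p was at 0.128, 9.70 and 0.313 against 9.10, 12.4 and 12.8 and miR-9-5p at 138, 645 and 181.95 against 564, 633 and 602, neither called, while miR-9-3p was (-1.75 ± 0.60). Without library 8 there were 5 falls in the list, and without any 1 of the other libraries, or by edgeR, there was 1. DESeq2 called 2 lower and 1 higher.

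Several further miRNAs had large changes. miR-128-3p, known from neurons and from muscle, rose from 74.2, 119.8 and 111 to 486, 228 and 423, 3.73-fold higher in the means (log2 change 1.85 ± 0.33, limma adjusted p 0.00764). Both arms of miR-340, from an intron of Rnf130, rose, miR-340-5p from 378, 331 and 220.2 to 1199, 742 and 868 and miR-340-3p from 32.3, 32.9 and 27.7 to 218, 73.6 and 122. In all of these the lowest KO-TRAMP library lay above the highest KO library. miR-3473e rose from 2.80, 3.54 and 2.64 to 21.9, 17 and 20.2 and miR-3473b from 5.49, 6.12 and 3.92 to 27.2, 25.8 and 27, with log2 changes of 2.37 ± 0.21 and 2.18 ± 0.22. Among the falls, miR-135a-5p, a repressor of Apc, stood at 5.23, 8.18 and 19.5 against 100.2, 77.0 and 95.3, 8.27-fold lower in the means (log2 change -3.11 ± 0.43, limma adjusted p 0.00336). miR-3102-3p fell from 34.9, 38.6 and 38.1 to 2.93, 8.75 and 3.75, and miR-708-5p, from an intron of Tenm4, from 75.7, 70.9 and 66.2 to 10.5, 26.1 and 14.7. miR-500-3p, from an intron of Clcn5 on chromosome X, fell from 37.8, 41.5 and 37.2 to 7.52, 10.9 and 6.72 (-2.11 ± 0.23, limma adjusted p 0.00178). Of the 24 miRNAs named as largest rises and falls, 21 were called in the same direction under the other scalings and by both count tools. The exceptions were miR-138-5p, miR-7b-5p and miR-129-5p.

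Other oncogenic and tumour suppressor families had some members called. Among all tested miRNAs 16.9% were called higher and 27.1% lower, and the shares of several of these families lay near or below that. Among miR-21, miR-31, miR-221 and miR-222, 3 of 8 arms rose and 2 fell. miR-31-5p rose from 180.2, 247 and 205 to 432, 560.0 and 318 (1.02 ± 0.24), whereas miR-221-3p (-0.80 ± 0.18) and miR-222-3p (-0.94 ± 0.15), repressors of the cell cycle inhibitor p27, fell by limma but not with edgeR. With library 31 or 33 left out there were 2 rises and 1 fall. In the let-7 family, which limits Ras and Hmga2, 4 of 10 members rose, let-7c-5p from 19753, 22072 and 20849 to 37799.6, 34537 and 34855 (0.77 ± 0.11, limma adjusted p 0.00336), and let-7e-5p fell (-0.54 ± 0.14), a call that was lost with median-ratio scaling. Without library 31 there was 1 rise and without library 33 there were 2. The family of miR-148a, miR-148b and miR-152 had 3 of 6 members higher and 0 lower, with 1 without library 31 or 32 and 2 without 7. miR-26 and miR-101 had 1 of 9 higher, and 4 with median-ratio scaling. The miR-29 family, which represses collagens, had 3 of 7 lower and 0 higher, led by miR-29c-3p (-1.50 ± 0.34), with 6 without library 8 and 0 without library 31, 32 or 33. In the miR-30 family 3 of 11 rose and 4 fell, and with median-ratio scaling 3 rose and 0 fell, with edgeR the same, and with DESeq2 3 rose and 1 fell. Without library 31, 32 or 33 no rise passed in that family, and without library 7 there was 1. The list of the miR-23, miR-27 and miR-24 clusters had 1 of 9 higher and 2 lower, with 2 higher and 0 lower under median-ratio scaling. In the list the rise was lost without library 8, 9, 31 or 32. The falls were 1 without library 9 and 0 without library 7, 31, 32 or 33. The unlisted arm miR-23b-5p was called higher too (log2 change 0.86). In the miR-192 and miR-194 list 1 of 4 tested members fell, miR-215-5p (-0.86 ± 0.21), and 0 with median-ratio scaling or without library 31 or 33.

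The imprinted Dlk1-Dio3 cluster on chromosome 12, one of the largest miRNA clusters of the genome, had a lower median than the pool. Of 39 tested members of the list 13 fell and 1 rose, and its median log2 change was -1.04. The list leaves out some arms of the locus. A second count took the tested miRNAs with a RefSeq mature sequence placed in 1 stretch only. It leaves out some listed members, such as miR-370-3p and miR-485-5p. In it, 12 of 37 fell and 1 rose in one stretch of hairpins (109709060 to 109747960) and 3 of 15 fell in the other (109563692 to 109595388). These shares lay near the 27.1% lower among all tested miRNAs. miR-127-3p, its most abundant member, stood at 413, 1069.9 and 552 against 1266, 1629.7 and 1293 (-1.15 ± 0.34, limma adjusted p 0.0314), with library 8 the highest of the KO-TRAMP libraries. miR-154-5p (-1.96 ± 0.47) and miR-409-3p (-1.94 ± 0.51) fell the most, and miR-543-3p rose (0.71 ± 0.20), a call lost without library 31, 32 or 33. Without library 8, 35 listed members fell, without library 7 there were 8 falls, without 9 there were 7, without 31 there were 6, and without 32 or 33 there were 3. The cluster of miR-322 and miR-503 on chromosome X had 2 of 9 tested members lower, also near the share of all tested miRNAs. It had 0 lower with median-ratio scaling or without library 7, 31, 32 or 33. The miR-378 family had 0 of 5 called and the skeletal muscle list 0 of 6, with 0 in each by edgeR and DESeq2 as well and 0 members of either at an unadjusted p under 0.05, except that without library 9 2 miR-378 miRNAs were lower. For skeletal muscle the spread within groups was large, as miR-133a-3p showed at 176, 719 and 2397 against 1326, 10448 and 1371. The liver marker miR-122-5p stood at only 3.32, 2.19 and 2.66 against 3.12, 2.50 and 2.77.

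**Figure D4:**
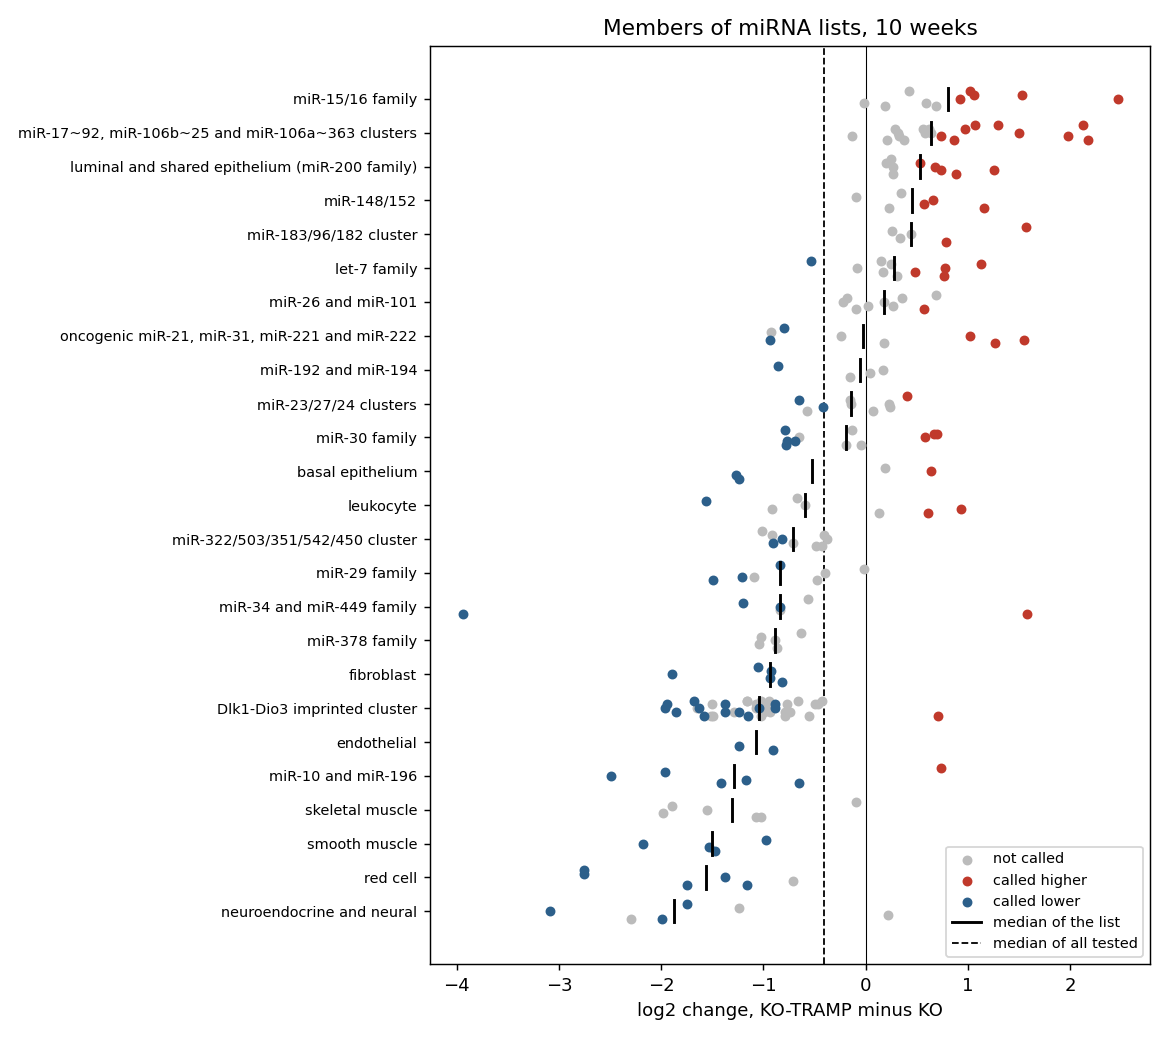
Log2 change (KO-TRAMP minus KO, horizontal axis) of each tested member of 25 miRNA lists, in rows ordered by the median (black tick). Red points were called higher, blue points lower and grey points not called. The dashed line at -0.41 is the median of all 510 tested miRNAs.

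Arms of a hairpin and neighbours in a cluster were set side by side as a description, and no chance level was formed. For 149 hairpins with a RefSeq sequence of both arms, both could be tested, and in 124 of these both arms changed to the same side of 0. Both arms were called for 36 of these hairpins, of which 15 had both arms higher and 21 both lower. In 0 of them were the arms called in opposite directions. Arms of 1 hairpin share their transcript, so they are not independent. The shift of the whole pool below 0 can also place arms on the same side. Some arms, such as miR-24-3p and miR-30c-5p, come from more than 1 hairpin and were counted with each of them. Grouping hairpins on 1 strand that lie within 10 kb of each other gave 28 groups with at least 3 tested miRNAs. Only tested miRNAs with a RefSeq mature sequence placed in 1 group were counted, so some members are left out. The highest median log2 change was 1.74, for the miR-106b~25 cluster, and the miR-195a and miR-497a group followed with the miR-15b group at 1.02 and 1.06. The lowest was -1.38 for miR-144 and miR-451a. Next was the group in Clcn5 on chromosome X (7237683 to 7248497, minus strand), where 6 of 7 counted miRNAs fell, with a median of -1.34. The miR-29b-2 and miR-29c group on chromosome 1 had 3 of 3 counted miRNAs lower, with a median of -1.21.

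Whether the TRAMP effect in KO differed from that in WT of the same age was tested as an interaction over 12 libraries, none of them shared by both effects. With limma 0 of 511 miRNAs passed (0%), 62 had an unadjusted p under 0.05, and edgeR called 0 and DESeq2 1. The WT libraries of 10 weeks without TRAMP held 9.73% to 30.7% skeletal muscle miRNA reads, above every KO library, and their part in this contrast was not tested. The median difference over all 511 was -0.35 with total scaling and -0.05 with median-ratio scaling. The log2 change of miR-25-3p was 2.12 ± 0.15 in KO and 2.44 ± 0.21 in WT, a difference of -0.32 ± 0.22 (limma adjusted p 0.453). With median-ratio scaling that difference was 0.04. For miR-34a-5p the log2 change was -3.94 ± 0.33 in KO and -2.24 ± 0.48 in WT. The difference of -1.71 ± 0.66 did not pass (limma adjusted p 0.386). In the non-TRAMP libraries miR-34a-5p stood at 85.3 to 295 RPM in WT against 402 to 475 in KO. The smallest p belonged to miR-181a-2-3p, the minor arm of a miR-181 hairpin on chromosome 2 (38852735 to 38852810), opposite an intron of Nr6a1. It was at 2.17, 2.19 and 3.60 in KO-TRAMP and 2.53, 3.54 and 2.03 in KO. In ascending order, it was at 1.14, 1.76 and 1.95 in WT-TRAMP and 12.6, 26 and 70.0 in WT. The difference of 3.49 ± 0.67 had a limma adjusted p of 0.132, and the WT libraries were the ones that stood apart.

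Against A537T, 2 of 512 miRNAs differed in their TRAMP effect at 10 weeks (0.391%), both arms of miR-10a. In KO miR-10a-5p fell by 1.41 on the log2 scale, from 19659.7, 24625 and 27102 to 7183, 7949.9 and 12208 RPM in ascending order. In A537T it was at 7579.8, 9371 and 9832 without and 9745, 10577 and 15780.4 with TRAMP. The difference was -1.82 ± 0.34 (limma adjusted p 0.0409) for miR-10a-5p and -1.64 ± 0.30 (limma adjusted p 0.0409) for miR-10a-3p. With TRAMP the KO and A537T libraries overlapped in miR-10a-5p, and without it they did not. Neither call held with median-ratio scaling (0.106 and 0.0987), edgeR called 0 and DESeq2 7 miRNAs, and without library 35, an A537T library of 655455 reads, 0 passed. Leaving out library 5, 6, 7, 31, 32, 33, 34 or 36 also gave 0, and without library 8 there were 12. At an unadjusted p under 0.05 there were 48 miRNAs by limma.

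The TRAMP effect in KO differed by age for 115 of 520 miRNAs (22.1%), in 106 of them lower and in 9 higher at 10 weeks than at 30 weeks. This split followed the scaling, since the median difference over all tested was -0.62 with total scaling and -0.06 with median-ratio scaling, which called 51 higher and 52 lower. Leaving out 1 library gave 231 calls without library 16 and 25 without 18, both KO-TRAMP of 30 weeks, and 44 to 73 without library 7, 9, 17, 24, 31, 32 or 33. The log2 change of miR-34a-5p was -3.94 ± 0.33 at 10 weeks and -1.54 ± 0.26 at 30 weeks, a difference of -2.40 ± 0.42 (limma adjusted p 0.00986; 0.0244 with median-ratio scaling). Its level in KO was 173, 239.7 and 249.7 RPM at 30 weeks, below the 10-week KO libraries, and in KO-TRAMP it was 63.6, 71.8 and 89.3, above the 10-week ones. The values of miR-34c-5p lay on opposite sides of 0, -1.20 ± 0.38 at 10 weeks and 1.67 ± 0.26 at 30 weeks, where KO held 38.0, 49.4 and 59.0 and KO-TRAMP 142, 160.1 and 166. The difference was -2.87 ± 0.47 (limma adjusted p 0.00986).

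miR-299a-3p, of the Dlk1-Dio3 cluster, also changed sides with age. It was at 7.01, 8.56 and 9.69 against 18.1, 20.04 and 16.3 at 10 weeks (-1.03 ± 0.21), and at 30 weeks at 11.1, 12.0 and 15.1 in KO-TRAMP against 5.48, 5.56 and 6.17 in KO (1.02 ± 0.26). miR-379-5p, its neighbour in the cluster, moved by -0.89 ± 0.27 at 10 weeks and 1.12 ± 0.23 at 30 weeks. The activity-induced miR-132-3p was not called at 10 weeks (-0.31 ± 0.26) and moved by 1.53 ± 0.26 at 30 weeks. These 3 had limma adjusted p of 0.00986 for the difference, and 0.0244 with median-ratio scaling. miR-25-3p, by contrast, differed between the ages by 0.27 ± 0.28 (limma adjusted p 0.473). The neuronal miR-7b-5p was at 9.81, 17.1 and 19.8 in KO at 30 weeks, far below the 375, 531 and 449 at 10 weeks. Its difference between ages was -6.08 ± 1.64 (limma adjusted p 0.0265). This exceeds its fall at 10 weeks, so at 30 weeks KO-TRAMP lay above KO in the mean log2 level. The call of the 10-week fall was lost in 7 of 18 alternatives, and the age difference was not followed over all alternatives.

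**Figure D5:**
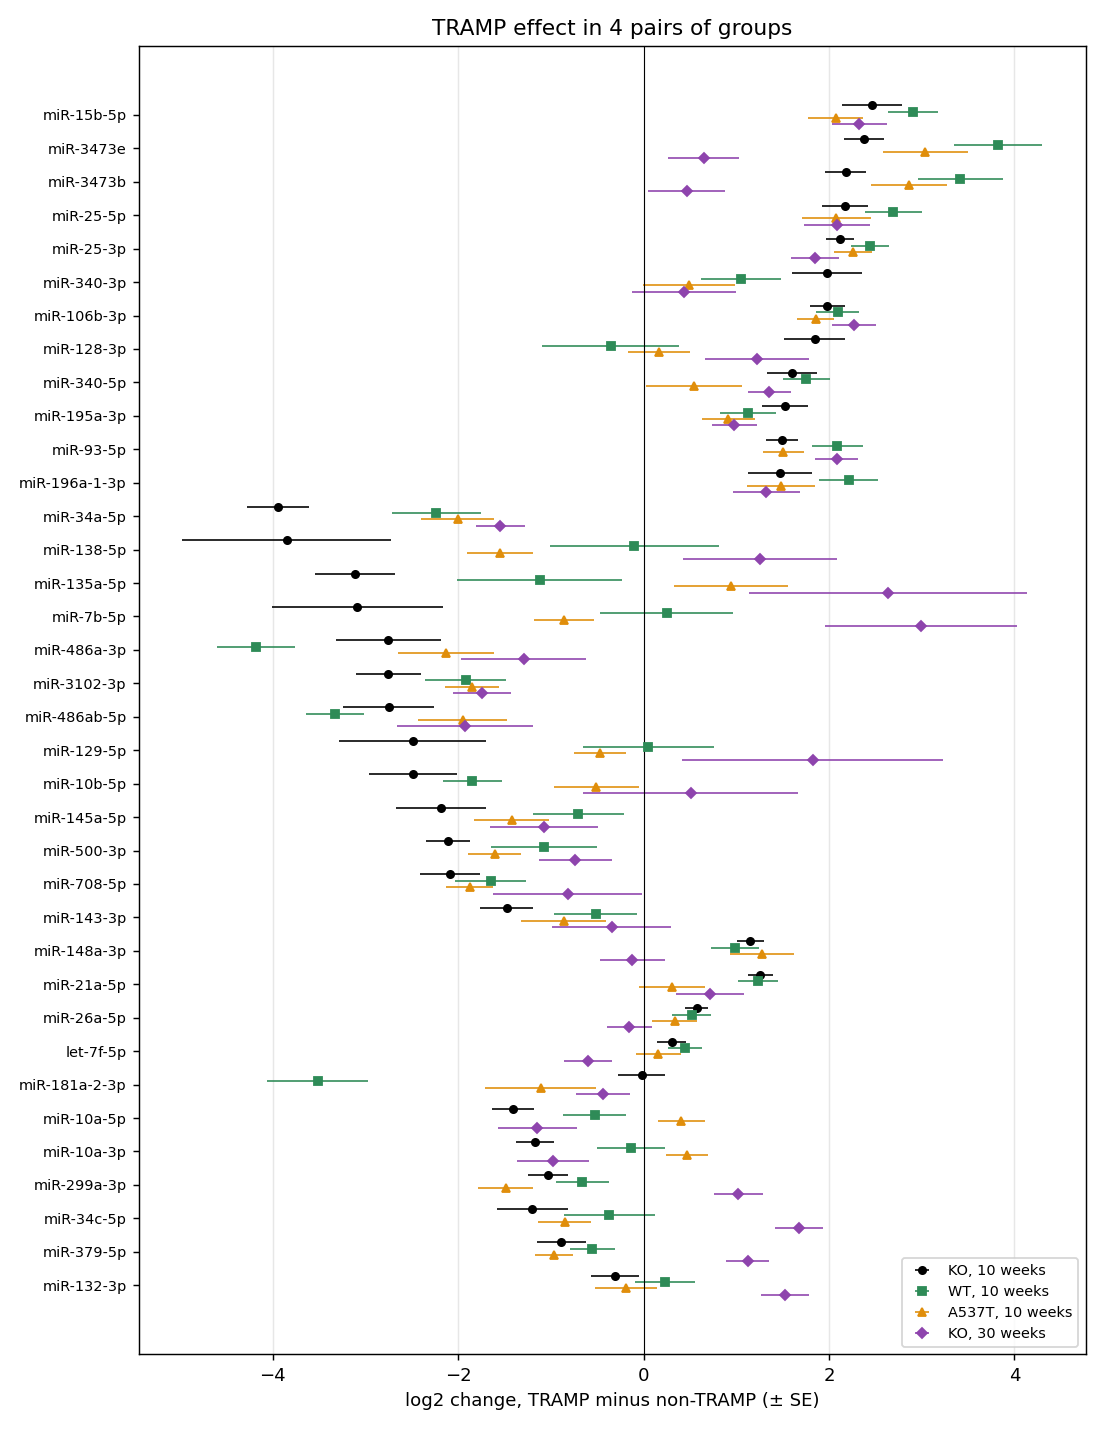
TRAMP effect (log2 change, TRAMP minus non-TRAMP, with SE bars) of each named miRNA in KO at 10 weeks (black), WT at 10 weeks (green), A537T at 10 weeks (orange) and KO at 30 weeks (purple), 3 against 3 libraries each. The points of miR-25-3p and miR-15b-5p lie above 0 in all 4 pairs of groups and those of miR-34a-5p below 0 in all 4, and miR-34c-5p, miR-299a-3p and miR-379-5p lie above 0 in KO at 30 weeks only.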

How the data were processed

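Small RNA was sequenced from ventral and lateral prostate lobes in 12 groups of 3 libraries. The authors merged read pairs, quantified miRNAs with miRDeep2 against GRCm38 and miRBase, summed identical sequences, and deposited 1 table for each comparison of normalised counts (signal: reads divided by a DESeq2 size factor). Their other tables, which hold fold changes and p-values of the authors' own comparisons, were not used. In every library the deposited values were whole multiples of 1 step, with all values whole to within 0.001 of a read, so reads were recovered and divided by the library total to join tables. The 12 control libraries found in 2 tables were identical. Columns were placed in groups by the table names, and 0 columns were left out.

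miRNAs with a mean of at least 1 RPM (reads scaled to a library total of 1000000) were tested as log2(RPM + 1) with limma 3.58.1 in R 4.3.3 (empirical Bayes with a variance trend, Benjamini-Hochberg adjustment over all tested miRNAs, threshold 0.05). Differences between TRAMP effects were interaction terms. Alternatives were other scalings, pseudocounts and filters, no trend, all 36 libraries in 1 fit, thinned reads, leaving out each library, edgeR 4.0.16 (quasi-likelihood) and DESeq2 1.42.0. The analysis was also run on simulated counts with planted changes and a fixed spread. Those counts hold no departures of single libraries, and the outcome is not used here. Named miRNAs were the 12 largest rises and falls among those called without overlap at a mean of at least 10 RPM, the 5 most abundant, up to 5 interaction calls with the smallest adjusted p, and members of cell type and family lists. The miR-7b-5p age difference lies outside this rule for interactions and was picked after its values were seen. The comparison and the lists were chosen with earlier results of these data known. Reads carry no molecular identifiers. Sequences and positions came from RefSeq tables of GRCm38.p6, which held a mature sequence for 441 of the 510 tested miRNAs.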

Additional observations from a re-analysis of the deposited data

Results flagged for a closer look

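The TRAMP effect in KO at 10 weeks differed from that in A537T for 2 miRNAs by the limma interaction test. The difference in log2 change was -1.82 for miR-10a-5p and -1.64 for miR-10a-3p, and both arms come from 1 hairpin. Of 24 alternatives, 15 lost the call of miR-10a-5p and 16 that of miR-10a-3p, with median-ratio scaling and edgeR among them.

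Between 10 and 30 weeks the TRAMP effect in KO differed for 115 miRNAs by the same kind of test. Among those named, the difference in log2 change (10 weeks minus 30 weeks) was -2.87 for miR-34c-5p, -2.40 for miR-34a-5p, -2.05 for miR-299a-3p, -2.01 for miR-379-5p and -1.83 for miR-132-3p. All 5 kept a limma adjusted p of 0.0244 with median-ratio scaling.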

How the results depend on the processing

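No paired analysis was possible because the columns of the tables carry library numbers and not the replicate numbers of the labels. Of the KO-TRAMP and KO calls at 10 weeks, leaving out 1 library gave 94 to 313 in all, 41 to 89 higher and 47 to 224 lower. A minimum mean of 10 RPM, which tests fewer miRNAs, gave 142 calls, 55 higher and 87 lower. edgeR called 117 higher and 79 lower, and DESeq2 143 higher and 91 lower. The difference from WT gave 0 to 1 calls without 1 library, 4 with all 36 libraries in 1 fit and 1 with DESeq2. The difference from A537T gave 0 to 12 without 1 library, 0 with median-ratio scaling, without the skeletal muscle miRNAs in the total, without a filter, without the variance trend, with all libraries or with edgeR, 1 after thinning, 4 with a pseudocount of 10 and 7 with DESeq2. The difference between ages gave 25 to 231 without 1 library, 57 without a filter, 66 with the higher minimum, 177 with all libraries and 174 with DESeq2. The causes were not tested. For the named miRNAs 651 of the alternative values kept direction and side of the threshold, 58 lost the call, 5 gained one and 0 reversed. Intervals were not formed for single libraries, and depth limits the low miRNAs most in library 35.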
